A study of Rattus norvegicus with 6 samples.

Results

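The enzymes of glycolysis and of the citrate cycle were followed as 38 named genes, of 15443 named genes on the array. They were chosen by symbol and not by a cut on measured values, though earlier results of these data were known. Each was read from its brightest probe, and all 38 were present and lay well above background on every array. The first arm holds 23 genes, from glucose entry to lactate. The second holds 15, from the pyruvate dehydrogenase complex through the citrate cycle.

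The samples came from Sprague Dawley rats aged 13 weeks and fall into 5 groups on 6 one-colour arrays. The treated hearts are 2 arrays, numbered replicates 1 and 3, of infarcted myocardium injected with ADSCs, the stem cells cultured from adipose tissue, after these had been tagged with the radioiodine compound 124I-HIB. The PBS heart is 1 array of infarcted myocardium injected with buffer, and the sham heart is 1 array of myocardium from a sham-operated rat. Labelled ADSCs, which carried the tracer, and unlabelled ADSCs gave 1 array each after 14 days of culture. Every heart is dated 21 days after a sham operation by its label, also the infarcted ones, which leaves their time after infarction unstated. The labels do not say whether the treated arrays come from separate animals, which part of the heart was taken, or how many animals a sample holds. The number of arrays limits the precision: only the treated pair measures spread within a heart condition, and that spread may be technical.

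Glycolysis splits glucose into pyruvate in the cytosol, and lactate dehydrogenase can turn that pyruvate into lactate. The pyruvate dehydrogenase complex instead commits it to the mitochondrial citrate cycle, whose electrons feed respiration. Heart muscle is known for burning mainly fatty acids, for its dense mitochondria, and for muscle forms of several glycolytic enzymes. Many other dividing or cultured cells use different genes for the same reactions.

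Values are log2 processed signal relative to the array's own 75th percentile, called the level, so a level compares 1 gene between arrays and not 1 gene with another. The 75th percentile was a signal of 2615 and 2360 in labelled and unlabelled ADSCs, 1276 and 1058 in the treated hearts, 1120 in the PBS heart and 772 in the sham heart. Between 68.5% and 72.5% of spots were well above background and none was saturated. All 8 ventricular cardiomyocyte markers were well above background in every heart, where their log2 summed level ran from 10.73 to 11.27, against 1.43 and 1.38 in the labelled and unlabelled ADSCs. In both ADSC arrays 4 of those 8 markers were not well above background, among them the myosins Myh6 and Myh7. Fibroblast and mesenchymal markers summed to 8.55 and 8.52 in the ADSCs, against 6.01 to 6.40 in the hearts. The PBS heart stood apart by its atrial markers, which summed to 8.81, against 7.15 to 7.39 in the other hearts.

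Promoters are shown for 4 glycolytic genes: the glucose transporter gene Slc2a1, the lactate dehydrogenase gene Ldha, and the muscle and general phosphoglycerate mutase genes Pgam2 and Pgam1, the pair that parted furthest between ADSCs and hearts. The sequences are those of RefSeq on GRCr8, from 250 bases before to 50 after each annotated start, written 5′ to 3′ on the gene's strand. Capitals mark ACGTG on either strand, the core of sites that hypoxia-inducible factors and other basic helix-loop-helix proteins can bind, and TATAAA on either strand. The windows lie at chr5:138002272-138002571 on the plus strand for Slc2a1, chr1:106507842-106508141 on the plus strand for Ldha, chr14:84897825-84898124 on the minus strand for Pgam2 and chr1:250672902-250673201 on the plus strand for Pgam1.
Slc2a1: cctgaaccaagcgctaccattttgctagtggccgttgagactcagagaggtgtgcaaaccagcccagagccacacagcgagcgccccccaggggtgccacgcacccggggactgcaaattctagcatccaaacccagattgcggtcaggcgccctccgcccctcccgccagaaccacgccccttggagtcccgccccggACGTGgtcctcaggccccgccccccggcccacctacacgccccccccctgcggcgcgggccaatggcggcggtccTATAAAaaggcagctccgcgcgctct
Ldha: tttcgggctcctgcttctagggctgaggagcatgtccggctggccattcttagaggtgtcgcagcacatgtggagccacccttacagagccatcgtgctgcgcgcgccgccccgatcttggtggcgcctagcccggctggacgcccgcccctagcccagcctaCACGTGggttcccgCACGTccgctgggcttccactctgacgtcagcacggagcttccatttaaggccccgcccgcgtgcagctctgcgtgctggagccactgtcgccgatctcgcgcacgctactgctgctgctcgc
Pgam2: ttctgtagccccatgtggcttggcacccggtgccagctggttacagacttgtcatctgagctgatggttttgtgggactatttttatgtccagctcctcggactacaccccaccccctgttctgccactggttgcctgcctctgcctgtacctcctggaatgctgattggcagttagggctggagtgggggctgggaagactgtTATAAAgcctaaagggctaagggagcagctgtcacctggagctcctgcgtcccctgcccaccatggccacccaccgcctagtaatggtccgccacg
Pgam1: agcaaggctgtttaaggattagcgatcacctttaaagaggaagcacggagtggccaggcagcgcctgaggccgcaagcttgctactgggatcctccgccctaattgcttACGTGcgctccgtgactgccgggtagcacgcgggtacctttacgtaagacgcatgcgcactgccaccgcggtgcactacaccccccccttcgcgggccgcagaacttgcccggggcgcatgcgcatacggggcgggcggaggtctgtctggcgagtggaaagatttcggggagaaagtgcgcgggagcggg
The Ldha window holds CACGTG, which counts on both strands, and a further CACGT nearer the start. Slc2a1 has ACGTG at position -51 relative to the start, and also TATAAA at 24, past the start. Pgam1 has ACGTG at -141, while Pgam2 has TATAAA at -46 and no ACGTG.

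Of the 38 members, 35 were found among those promoters, counting a gene as holding a motif if any of its listed windows did. ACGTG was held by 11 of 21 glycolytic genes (52.4%) and 5 of 14 citrate cycle genes (35.7%), against 20.9% of all 27457 genes listed. GGGCGG on either strand, the core of the GC box bound by Sp-family factors, was held by 66.7% and 64.3% of the arms, against 36% of all genes. By tissue form of the enzyme, all 8 genes listed as forms of other tissues (Slc2a1, Pfkl, Pfkp, Pgam1, Eno1, Ldha, Aldoc and Pfkfb3) held GGGCGG, and of the 6 muscle forms found, 1 did, Ldhb. ACGTG was held by 6 of those 8 and, of the muscle forms, by Pfkm alone. TATAAA was held by 14.3% of glycolytic genes and by 0 citrate cycle genes, against 15.3% of all genes. A match of letters is a description of these windows and not a bound site.

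The first comparison set cultured ADSCs against myocardium, to describe how the pathway differs between the injected cell type and its host tissue. Every citrate cycle member was lower in ADSCs, and glycolysis divided. The 7 genes listed as muscle forms (Slc2a4, Pfkm, Pfkfb1, Pfkfb2, Pgam2, Eno3 and Ldhb) fell. Of the 8 listed as forms of other tissues 5 rose. The hexokinase genes Hk2 and Hk1 are in neither list, and their pair went the other way (0.55 for Hk2 over Hk1). By limma across 20745 features, with the 2 ADSC arrays as one class and the 4 hearts as the other, 34 of 38 members passed an adjusted p under 0.05, against 68.9% of all features. Of the glycolytic members 6 rose and 13 fell, where 33.1% of all features rose and 35.8% fell, and all 15 citrate cycle members fell. The median log2 difference was -0.48 over glycolysis and -2.50 over the citrate cycle, against -0.05 over all features. Over glycolysis it was -0.18 with arrays centred on their medians, where all features stood at 0.24, and -0.95 with the mean of all probes of a gene. Of the 38, 30 had both ADSC arrays below all 4 hearts and 6 had both above, against 40% and 37.7% of all features. Culture, cell type and slide row all separate the classes and cannot be told apart, and the spread within a class mixes its conditions.

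**Figure D1:**
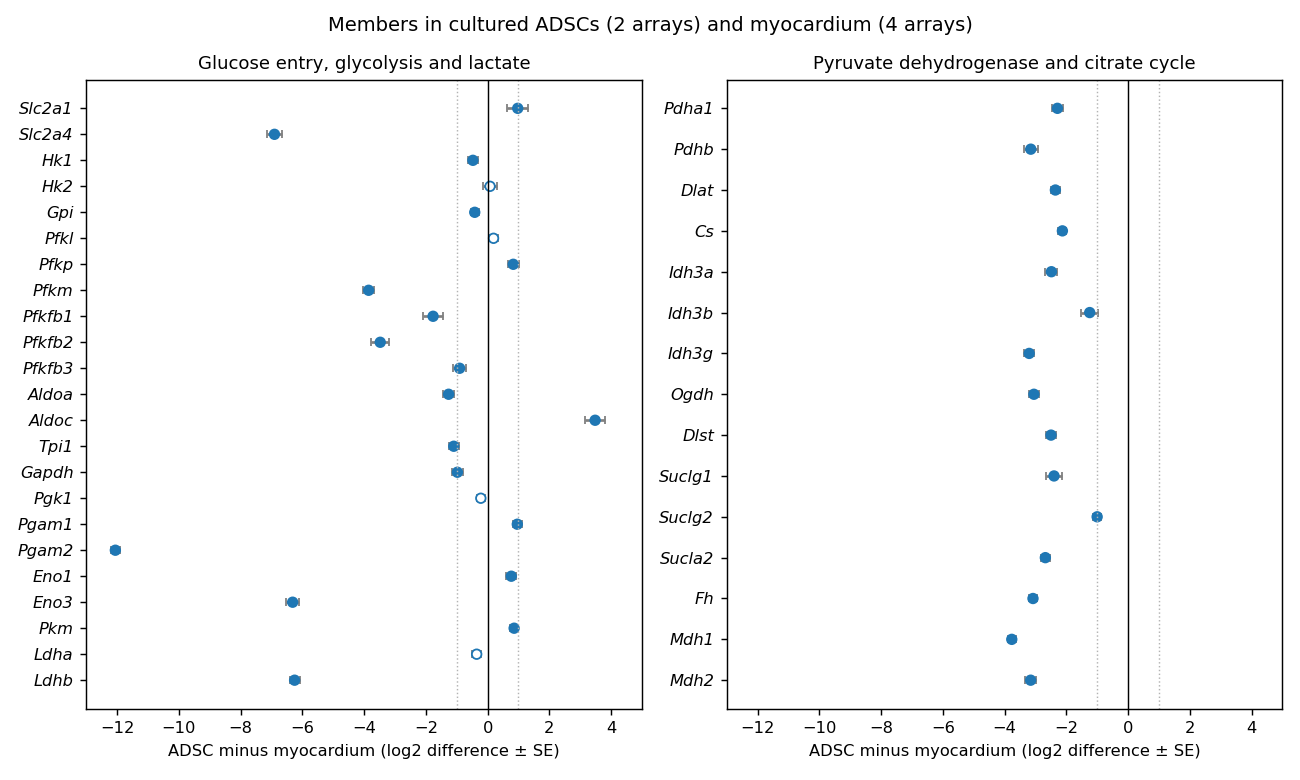
Log2 difference of the mean level in 2 ADSC arrays from the mean in 4 myocardial arrays for each member, with the standard error of the limma fit as bars. Filled points passed an adjusted p under 0.05 and dotted lines mark 2-fold; all citrate cycle members lie left of 0, from -3.77 (Mdh1) to -1.002 (Suclg2), while glycolytic members run from -12.06 (Pgam2) to 3.48 (Aldoc).

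Glucose enters through transporters of the Slc2a family. Slc2a4 encodes the insulin-responsive transporter of muscle and fat. Its level was -2.96 in labelled and -2.61 in unlabelled ADSCs, against 4.20 and 4.41 in the treated hearts, 3.67 in the PBS heart and 4.19 in the sham heart. The classes lay far apart, with a log2 difference of -6.90 ± 0.23 (SE; limma adjusted p = 2.18e-06). Slc2a1, the transporter most cell types use for basal uptake, went the other way. Its level was 1.49 in labelled and 1.21 in unlabelled ADSCs, against 0.76 and 0.74 in the treated hearts, 0.37 in the PBS heart and -0.37 in the sham heart. Both ADSC arrays were above all hearts and the difference was 0.98 ± 0.34 (SE; limma adjusted p = 0.0405). That call was lost without the PBS, the unlabelled or the labelled array (limma adjusted p = 0.0720, 0.0956 and 0.184) and after quantile normalization, and the adjusted p ranged from 0.00600 to 0.184 over all fits.

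Hexokinases trap glucose as its phosphate. Hk1, the housekeeping form, averaged 2.36 ± 0.04 in ADSCs (SD, n = 2) and 2.84 ± 0.20 in hearts (SD, n = 4), a difference of -0.48 (limma adjusted p = 0.0358). Hk2, the form of insulin-responsive muscle, averaged -1.74 ± 0.05 in ADSCs and -1.81 ± 0.34 in hearts (SD, n = 2 and 4), and its difference of 0.08, which was -0.082 with normexp, did not pass (limma adjusted p = 0.772). Gpi, which converts glucose phosphate to fructose phosphate, differed by -0.42 (limma adjusted p = 0.0318). The Hk1 and Gpi calls were each lost without treated replicate 1 (limma adjusted p = 0.0572 and 0.0529), without treated replicate 3 (0.0762 and 0.0727), without the unlabelled array (0.110 and 0.111) and without the labelled array (0.147 and 0.127), and the Gpi call also without the sham array (0.0563). Both were lost as well when arrays were centred on their medians and when each of the 5 groups had its own mean. The Gpi call was also lost with normexp (limma adjusted p = 0.0598). Over all fits the adjusted p ranged from 0.0154 to 0.383 for Hk1 and from 0.0145 to 0.471 for Gpi.

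Phosphofructokinase is the committed, most regulated step. Pfkm encodes its muscle subunit, with levels of 0.77 and 1.03 in labelled and unlabelled ADSCs, against 4.74 and 4.82 in the treated hearts, 4.49 in the PBS heart and 4.97 in the sham heart. It fell by 3.85 on the log2 scale (limma adjusted p = 6.44e-06). Pfkp, the platelet-type subunit, rose by a log2 difference of 0.83 (limma adjusted p = 0.00735), with 2.52 and 2.68 in the ADSCs against 1.58 to 2.14 in the hearts and its adjusted p over all fits ranged from 0.00112 to 0.0535, the highest without the unlabelled array. Pfkl, the liver-type subunit, showed a difference of 0.19 (limma adjusted p = 0.286). Pfkfb genes encode the bifunctional enzymes that set the amount of a regulatory fructose bisphosphate. That compound activates this step and differs from the step's own product. The liver and muscle gene Pfkfb1, the heart gene Pfkfb2 and the widely inducible Pfkfb3 all fell, with log2 differences of -1.77, -3.48 and -0.91 (limma adjusted p = 0.00275, 0.000105 and 0.00843). The call of Pfkfb3 was lost without the labelled array (limma adjusted p = 0.0691) and after quantile normalization, and the lowest adjusted p over all fits was 0.000348.

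The middle steps from aldolase to pyruvate kinase held both the largest fall and the largest rise. Aldoa, the aldolase of muscle and most tissues, fell (-1.26), while Aldoc, the aldolase best known from brain, rose (3.48; limma adjusted p = 0.000743 and 0.000138). Aldoc had levels of 2.93 and 3.26 in labelled and unlabelled ADSCs, against -0.98 and -0.18 in the treated hearts, 0.16 in the PBS heart and -0.54 in the sham heart. It was the single member 2-fold higher in ADSCs, where 24 were 2-fold lower, against 20.8% and 26.7% of all features. With arrays centred on their medians Slc2a1, Pfkp, Pgam1, Eno1 and Pkm passed 2-fold as well, making 6 higher and 20 lower against 27.6% and 21.7% of features. Pgam1 also passed after quantile normalization and without the PBS or the unlabelled array, and Slc2a1 without treated replicate 1, treated replicate 3 or the unlabelled array. Tpi1 and Gapdh, which handle the triose phosphates, fell too (-1.10 and -0.98; limma adjusted p = 0.000938 and 0.00247). Pgk1, the first step that regains ATP, showed a difference of -0.22, which was 0.010 after quantile normalization and 0.073 with arrays centred on their medians, and did not pass (limma adjusted p = 0.164).

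Phosphoglycerate mutase gave the largest difference of any member. The muscle gene Pgam2 had levels of -6.09 and -6.17 in labelled and unlabelled ADSCs, against 5.97 and 6.07 in the treated hearts, 5.68 in the PBS heart and 5.99 in the sham heart. It fell by 12.06 on the log2 scale (SE 0.15, limma adjusted p = 1.15e-07), which is 4262-fold. That fold rests on a dim signal in ADSCs, well above background but not far from it. Myh7, at -7.08 in unlabelled ADSCs, was not well above background. Pgam1, the general gene, had 5.90 and 5.77 in the ADSCs, against 4.93 and 4.66 in the treated hearts, 4.99 in the PBS heart and 4.91 in the sham heart. It rose by 0.96 (limma adjusted p = 0.00101), so the classes did not overlap in either gene and pointed opposite ways. Enolase repeated this: the muscle gene Eno3 fell (-6.31) and the general gene Eno1 rose (0.77; limma adjusted p = 2.18e-06 and 0.00502). Eno3 stood at -0.22 and -0.05 in the ADSCs, against 6.19 and 6.26 in the treated hearts, 5.77 in the PBS heart and 6.50 in the sham heart.

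Pkm, the pyruvate kinase of muscle and most other tissues, is spliced into alternative forms, and its probes disagreed. The brighter probe, used here, rose by 0.86 (limma adjusted p = 0.00154), with 3.81 and 3.70 in labelled and unlabelled ADSCs, against 2.96, 2.83, 2.73 and 3.05 in treated 1, treated 3, PBS and sham. The other probe stood at -2.76 and -2.65 in the ADSCs, against 1.30, 1.06, 1.00 and 1.43 in the same hearts, a difference of -3.90. Which exons each probe reads was not analysed here, so no direction is given for the gene, though the count of 6 rising members includes it by its brighter probe. The probes of the other 7 members with several agreed in direction in this comparison, with Gapdh at -0.98, -1.55 and -1.10 over its 3 probes and Pfkfb2 at -3.48 and -1.52 over 2.

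Lactate dehydrogenase closes the anaerobic arm. Ldhb, whose subunit predominates in heart, fell by 6.25 (SE 0.16, limma adjusted p = 7.67e-07), with 1.27 and 1.19 in labelled and unlabelled ADSCs, against 7.54 in both treated hearts, 7.19 in the PBS heart and 7.67 in the sham heart. Ldha, whose subunit predominates in skeletal muscle and glycolytic cells, had 6.39 and 6.22 in the ADSCs, against 6.67, 6.65, 6.47 and 6.84 in treated 1, treated 3, PBS and sham. Its difference of -0.35 did not pass (limma adjusted p = 0.0653), and the range of that p over all fits of this comparison was 0.0399 to 0.747. Gapdh, Ldha, Eno1 and Pgk1 have near copies among the pseudogenes of rodent genomes, so their probes may report more than 1 sequence.

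Taking each step as a pair, the gene written first stood lower in ADSCs relative to its counterpart in every pair but hexokinase. The difference of the log2 differences, ADSC minus myocardium, was -13.02 for Pgam2 over Pgam1, -7.88 for Slc2a4 over Slc2a1, -7.08 for Eno3 over Eno1, -5.90 for Ldhb over Ldha, -4.75 for Aldoa over Aldoc and -4.68 for Pfkm over Pfkp. For Hk2 over Hk1 it was 0.55. Within the hearts the log2 ratio of a pair varied by an SD of 0.08 (Ldhb over Ldha) to 0.64 (Aldoa over Aldoc) over the 4 arrays. Over the 7 genes listed as muscle forms the median difference was -6.25, all 7 falling, and over the 8 listed as forms of other tissues it was 0.80, with 5 rising and 1 falling, against 33.1% of all features rising and 35.8% falling. Hk1, Hk2 and Aldoa stand in neither list. Ldhb, the heart form, is listed with the muscle forms, and Ldha, which predominates in skeletal muscle, with those of other tissues.

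**Figure D2:**
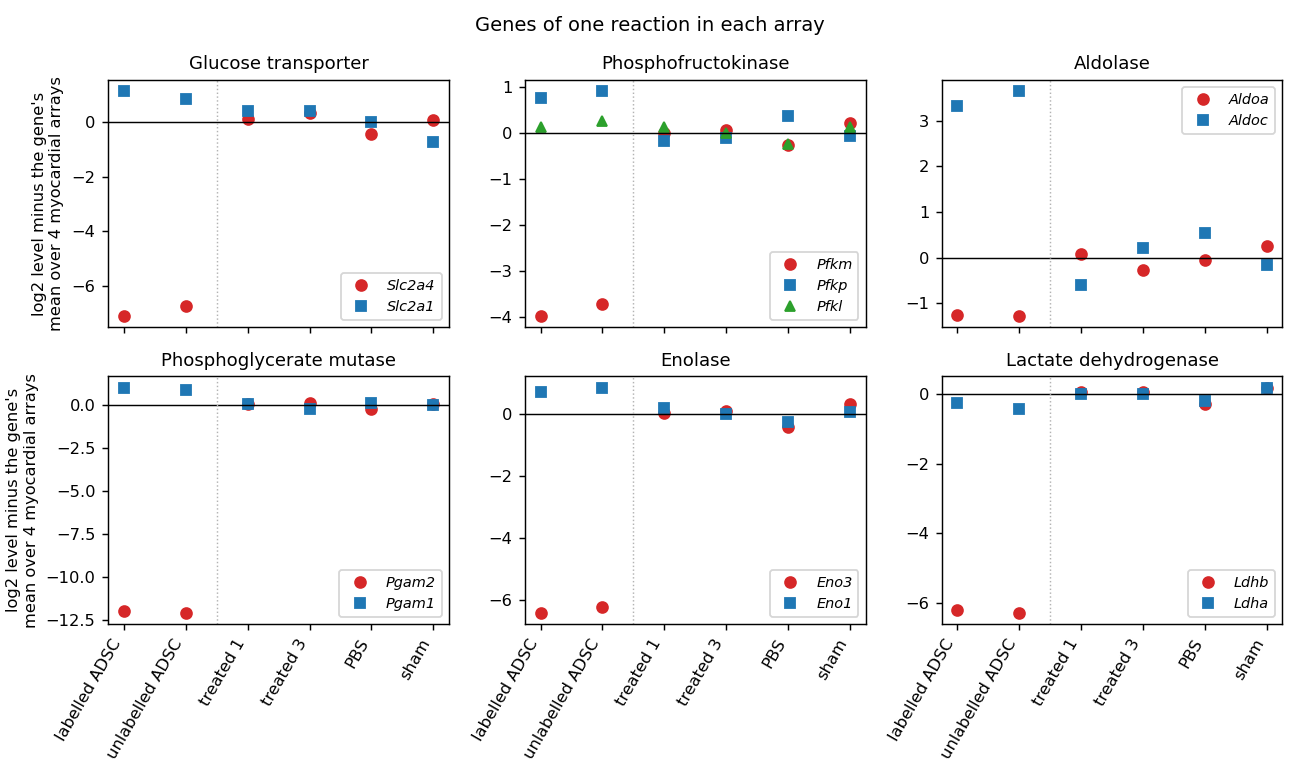
Log2 level of each gene in each of the 6 arrays, minus the gene's own mean over the 4 myocardial arrays, for 6 steps that more than 1 gene serves. Points left of the dotted line are the ADSC arrays. The first gene of each step, in red, drops furthest for Pgam2 (-12.06), while the counterparts stay near 0 or above it, Aldoc at 3.48. Red marks Slc2a4, Pfkm, Aldoa, Pgam2, Eno3 and Ldhb.

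The mitochondrial arm fell throughout. The pyruvate dehydrogenase genes had log2 differences of -2.29 (Pdha1, a catalytic subunit), -3.15 (Pdhb, its partner) and -2.35 (Dlat, the acetyl-transferring core), with limma adjusted p of 5.26e-05, 4.97e-05 and 3.04e-05. Citrate synthase, Cs, which opens the cycle, fell by 2.13 (limma adjusted p = 2.52e-05). The subunits of NAD-dependent isocitrate dehydrogenase fell unequally: -3.20 for Idh3g, -2.48 for the catalytic Idh3a and -1.24 for Idh3b (limma adjusted p between 1.03e-05 and 0.00624). Ogdh and Dlst of the oxoglutarate dehydrogenase complex fell (-3.05 and -2.50). Succinyl-CoA ligase has an alpha subunit, Suclg1 (-2.40), an ATP-forming beta subunit, Sucla2 (-2.68), and a GTP-forming beta subunit, Suclg2 (-1.002), which fell least in the arm.

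Fumarase, Fh, and the mitochondrial malate dehydrogenase Mdh2 fell as well (-3.08 and -3.16). Mdh1, the cytosolic malate dehydrogenase of the malate-aspartate shuttle, had the largest difference of the arm. Its levels were 0.83 and 0.81 in labelled and unlabelled ADSCs, against 4.78 and 4.48 in the treated hearts, 4.50 in the PBS heart and 4.60 in the sham heart, a log2 difference of -3.77 (SE 0.13; limma adjusted p = 2.38e-06). For every member of this arm both ADSC arrays lay below all 4 hearts, and all 15 were lower at least 2-fold, where 26.7% of all features were. With arrays centred on their medians 13 of 15 were, with Suclg2 at -0.71 and Idh3b at -0.95. Suclg2 also fell short of 2-fold with normexp and without the sham, the treated 1 or the unlabelled array. In these bulk samples fewer cells of a type and less RNA per cell cannot be told apart.

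Genes around the pathway, listed beside the members and not among them, filled in the same comparison, and their counts compare with 33.1% of all features rising and 35.8% falling. Of 10 genes that gate pyruvate into the mitochondrion, 9 fell and 1 rose. The dehydrogenase kinases Pdk4 and Pdk2, which switch the complex off, fell (-5.49 and -4.90, with Pdk4 well above background in 1 of the 2 ADSC arrays), the pyruvate carrier Mpc1 fell (-3.36), and the kinase Pdk3 rose (3.61; limma adjusted p between 6.91e-06 and 0.000134). Of 13 further citrate cycle and exit genes, 8 fell and 4 rose, with mitochondrial isocitrate dehydrogenase Idh2 at -4.42. Higher in ADSCs were Pck2 (2.99) and ATP citrate lyase Acly (2.81), which turns citrate to acetyl-CoA for lipid synthesis. Of 10 glycogen and gluconeogenesis genes 9 fell, among them muscle glycogen phosphorylase Pygm (-7.65), and the liver phosphorylase Pygl rose (2.37). The muscle fructose bisphosphatase Fbp2 was well above background in every heart and in neither ADSC array.

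Of 6 pentose phosphate genes 4 rose and 1 fell. The transketolase Tkt, which links the pathway back to glycolysis, rose (1.80; limma adjusted p = 0.000318). Among 13 further glycolysis and lactate genes 4 rose and 7 fell. The lactate exporter of glycolytic cells, Slc16a3, rose (5.06), and so did the neuronal enolase Eno2 (3.82). Of 6 regulators 4 fell and 2 rose. The fatty acid receptor Ppara and the regulator Egln3 fell (-4.56 and -2.52). The hypoxia factor gene Hif1a and Myc rose (2.80 and 2.96). For these genes the limma adjusted p lay between 3.59e-05 and 0.000145. Ppargc1a, a coactivator of mitochondrial genes, was well above background in every heart and in neither ADSC array.

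The second comparison asked how treated infarcts differed from the PBS-injected infarct. Most members were slightly higher in both treated hearts: 19 of 23 glycolytic and 12 of 15 citrate cycle genes, against 38.1% of all features. Pfkp, Aldoc and Pgam1 were lower in both, against 34.6%. The median log2 difference was 0.29 over glycolysis and 0.18 over the citrate cycle, against 0.01 over all features. The 1906 features with the highest signal had a median of 0.09, and 35.6% of them were lower in the treated hearts by their mean. They held 23 of the 38 members. No member passed limma (0 of 38, against 0% of 19230 features), and the fit had 1 residual degree of freedom. At an unadjusted p under 0.05 it gave 3 members, Slc2a4, Pfkp and Pfkfb1, beside 9.71% of all features. With normexp and with a trended prior it called 82 and 59 features, none of them a member. No member was 2-fold apart in both treated hearts, where 2.8% of features were.

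Pfkfb1, Pfkfb2 and the transporter gene Slc2a4 gave the largest positive differences, while Pfkfb3 was at 0.09 by the probe used and at -0.21 by its second probe. Each SD given in this comparison is over the treated pair and holds no spread of the PBS array. Pfkfb1 had a level of -1.11 and -1.41 in treated hearts 1 and 3, against -2.16 in the PBS heart, a difference of 0.90 ± 0.21 (SD, n = 2; limma adjusted p = 0.430). Pfkfb2 had -1.52 and -0.88 in the treated hearts, against -1.97 in the PBS heart, a difference of 0.77 ± 0.45 (SD, n = 2; limma adjusted p = 0.612). Slc2a4 came next at 0.64 ± 0.15 and Eno3 at 0.46 ± 0.05 (SD, n = 2; limma adjusted p = 0.485 and 0.539). All 7 muscle forms were lower in the PBS heart than in the sham heart (median -0.48), against 53.5% of all features. In both treated hearts 2 of them were higher than sham and 3 lower (median 0.02), against 34.2% and 40.4%. Compared with the PBS heart, all 7 were higher in both treated hearts, with a median of 0.46. The 8 forms of other tissues had 5 higher and 3 lower than PBS and a median of 0.14. Over all features, 38.1% were higher than PBS in both treated hearts and 34.6% lower. Aldoc was the lowest at -0.74 ± 0.57 (SD, n = 2; limma adjusted p = 0.678), and its treated levels of -0.98 and -0.18 lay further apart than the nearer one lay from the PBS level of 0.16. Pfkp, at 1.58 and 1.66 in the treated hearts against 2.14 in the PBS heart, differed by -0.52 ± 0.05 (SD, n = 2; limma adjusted p = 0.497).

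In the citrate cycle the differences were smaller. Idh3g stood highest at 0.39 ± 0.01, followed by Dlst at 0.36 ± 0.08, Idh3a at 0.35 ± 0.25 and Pdha1 at 0.24 ± 0.08 (SD, n = 2; limma adjusted p between 0.592 and 0.740). The arm's median was 0.30 in treated replicate 1 and 0.10 in replicate 3. Idh3b was the most uneven member, with 3.10 and 2.13 in treated hearts 1 and 3, against 2.82 in the PBS heart and 2.80 in the sham heart. The second probe of Pdha1 differed from PBS by -0.12. After quantile normalization 18 glycolytic and 9 citrate cycle genes were higher in both treated hearts, against 38.8% of features, and Pgk1 and Suclg1 changed sign. Between the treated arrays 0 of 38 members were 2-fold apart, against 3.65% of features.

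Markers of other cells moved between the same arrays. Atrial markers were lower in both treated hearts than in the PBS heart for 6 of 6 genes, with a median log2 difference of -6.15, and 3 and 2 of them were not well above background in treated hearts 1 and 3, against 0 in the PBS heart. The adipocyte gene Adipoq was well above background in the PBS heart alone, smooth muscle markers had a median of -0.95 and erythroid markers one of 1.06. Ventricular markers had a median of -0.0044, with log2 summed levels of 10.73 and 10.92 in the treated hearts against 10.85 in the PBS heart. Their part in the differences of the members was not tested.

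The third comparison set the PBS heart against the sham heart, with 1 array each and so no test. Enzyme genes were mostly a little lower in the PBS heart: 19 of 23 glycolytic and 14 of 15 citrate cycle genes, against 53.5% of all features. The median log2 differences were -0.32 and -0.30, against -0.03 over all features. Hk2 was lowest at -0.82, followed in glycolysis by Pfkfb2 (-0.75), Eno3 (-0.73), Pfkfb3 (-0.56) and Slc2a4 (-0.52). In the citrate cycle Suclg1 (-0.79), Pdhb (-0.67), Pdha1 (-0.53), Dlst (-0.51) and Mdh2 (-0.45) were lowest. Slc2a1 (0.74), Aldoc (0.69), Pfkp (0.45), Pgam1 (0.08) and Idh3b (0.02) were higher, against 46.5% of features. No member reached 2-fold, where 6.92% of features did, though the second probe of Pfkfb3 stood at 1.21 and gave the opposite sign.

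This comparison leans on the scaling. The 1843 features with the highest signal had a median of -0.22 and 80.2% of them were lower in the PBS heart, and 24 of the 38 members belonged to them. After quantile normalization the medians were -0.15 and -0.16, with 16 of 23 and 12 of 15 genes lower against 51.1% of all features, and Hk1, Pgk1, Fh and Mdh1 changed sign. All 8 ventricular markers were lower in the PBS heart too, with a median of -0.45, while atrial markers had a median of 6.41 and smooth muscle markers one of 1.11. Their part in the lower enzyme levels was not tested.

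Across the 4 hearts the PBS array held the lowest level for 30 of 38 members, 18 glycolytic and 12 of the citrate cycle, against 29.3% of features. With normexp it did so for 29, against 30.2%, and after quantile normalization for 23, against 28.5%. In the authors' deposited table it did so for 23, against 28.2%. It held the highest level for Pfkp, Aldoc and Pgam1, against 25% of features, and so also after quantile normalization (25.5%), with normexp (16.2%) and in the authors' deposited table (26.2%). The sham heart held the highest level for 23 members, against 32.3%, but for 13 after quantile normalization, against 28.3%, for 21 with normexp, against 55.2%, and for 14 in the authors' deposited table, against 28.5%. It held the lowest level for Slc2a1 alone, against 25.9%, and so also with normexp (12.8%). After quantile normalization (28.6%) and in the authors' deposited table (29%) it did so for 4 members, Slc2a1, Hk1, Ldhb and Fh.

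**Figure D3:**
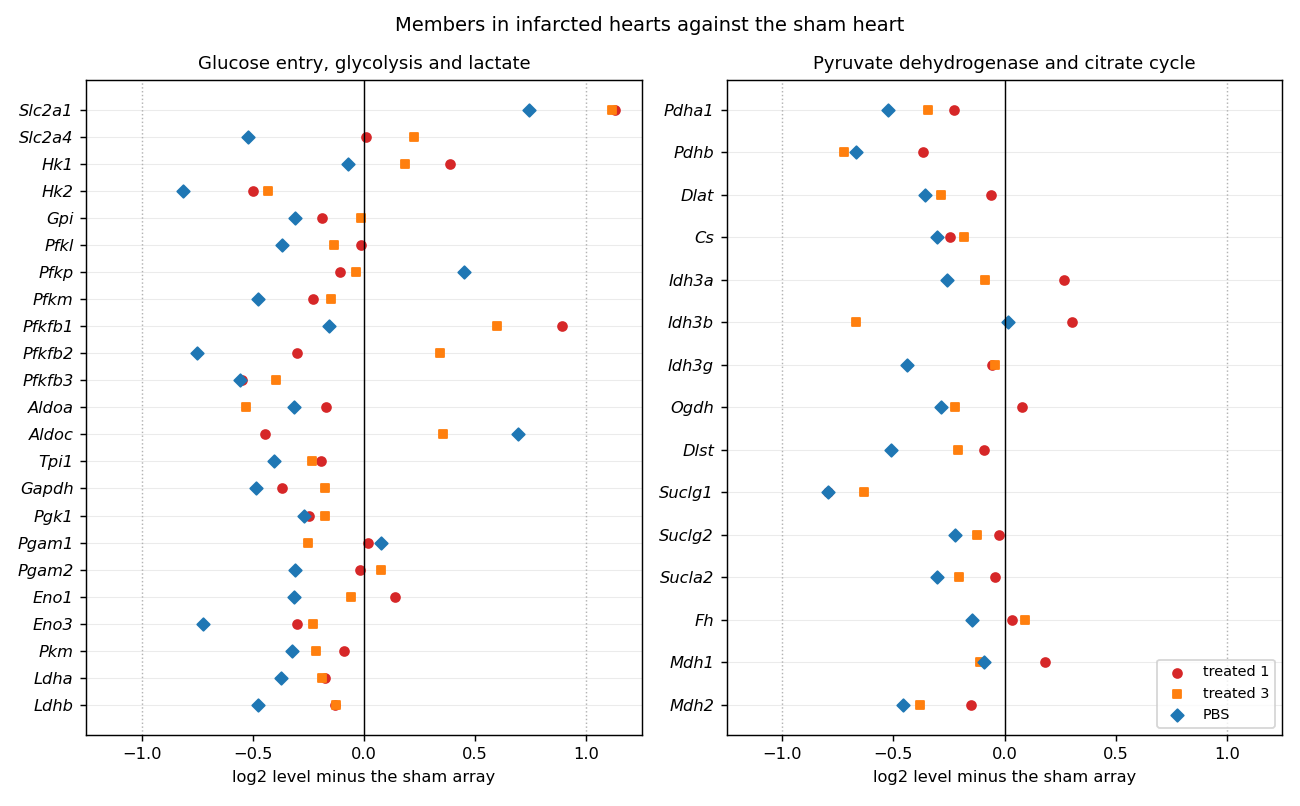
Log2 level in treated hearts 1 and 3 and in the PBS heart, minus the sham heart, for each member. Blue diamonds (PBS) lie left of 0 for 33 of 38 genes, both treated points lie right of the diamond for 31 genes (for Suclg1 the treated 1 point lies behind it), and Slc2a1 lies right of 0 in all 3 infarcted hearts.

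The fourth comparison set the treated hearts against the sham heart. No member passed limma (0 of 38, against 0% of 19230 features). At an unadjusted p under 0.05 it gave Slc2a1, Pfkfb1 and Suclg1, beside 9.59% of all features, and normexp and a trended prior called 50 and 49 features, none of them a member. Slc2a1 was the single member 2-fold apart in both treated hearts, against 2.53% of features, with 0.76 and 0.74 in treated hearts 1 and 3, against -0.37 in the sham heart. Its difference was 1.12 ± 0.01 (SD, n = 2; limma adjusted p = 0.348). Each SD given in this comparison is over the treated pair and holds no spread of the sham array. The PBS heart, which shares the sham array in its own comparison, had a Slc2a1 level of 0.37. Pfkfb1 was next at 0.74 ± 0.21, and Hk1, Slc2a4 and Fh were also higher in both (0.29, 0.12 and 0.06). These 5 members compare with 34.2% of all features.

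Lower in both treated hearts were 14 glycolytic and 10 citrate cycle genes, against 40.4% of features, with medians of -0.12 and -0.15 over the arms and -0.03 over all features. Suclg1 was lowest, with 6.13 and 6.29 in the treated hearts, against 6.92 in the sham heart, a difference of -0.71 ± 0.11 (SD, n = 2; limma adjusted p = 0.459). Pdhb followed at -0.54, Pfkfb3 at -0.47 and Hk2 at -0.46, though the second probe of Pfkfb3 stood at 0.997 and gave the opposite sign. The 1885 features with the highest signal had a median of -0.14 and 75.8% of them were lower in the treated hearts by their mean, and 24 of the 38 members belonged to them. With quantile normalization 8 glycolytic genes were lower in both and 8 higher, and 6 of 15 citrate cycle genes were lower and 2 higher, against 35.9% and 37.6% of features. The medians were then -0.0077 and -0.030, and Pgam1, Ldha, Ldhb, Idh3g and Ogdh changed sign, so the lower position of most members was not kept under that scaling. Ventricular markers were lower than sham in 8 of 8 genes (median -0.41).

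Of the genes around the pathway, none passed limma in either treated comparison. The 10 genes that gate pyruvate were mostly lower in the PBS heart than in the sham heart, 7 against 3 higher (median -0.47). Over all features 53.5% were lower and 46.5% higher. Pdk3 was 2-fold higher (1.15), and Pdk4, the kinase that fasting and fatty acids induce, differed by 0.98. The kinases Pdk1 and Pdk2 stood at -0.84 and -0.43. Treated minus PBS, 7 of the 10 were higher in both treated hearts and 2 lower, against 38.1% and 34.6% of all features. There Pdk3 was at -0.87 and Ppara at 0.89. Of 12 measured citrate cycle and exit genes, 11 were lower in the PBS heart than in the sham heart, with the succinate dehydrogenase subunit Sdhc at -0.82, against 53.5% of all features and 80.2% of the 1843 with the highest signal. Of the same 12, 10 were higher in both treated hearts than in the PBS heart, with Sdhc at 0.50, against 38.1% of all features. By their mean, 35.6% of the 1906 features with the highest signal were lower in the treated hearts than in the PBS heart. Both comparisons use the PBS array, and both comparisons with sham use the sham array, so they are not independent. Among 6 regulators, 3 were higher and 3 lower in the PBS heart than in the sham heart, against 46.5% and 53.5% of all features. In both treated hearts 2 were higher than sham and 2 lower, against 34.2% and 40.4%. Hif1a differed from sham by 0.79 in the treated hearts and by 0.68 in the PBS heart. For Egln3 these differences were -0.19 and 0.0022, and Ppara stood at -0.89 in the PBS heart against sham.

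The fifth comparison set tracer-labelled against unlabelled ADSCs, 1 array each, with no test. No member differed 2-fold, where 2.89% of features did, and differences ran from -0.39 (Pfkfb3) to 0.41 (Idh3a). Labelled cells were higher for 12 of 23 glycolytic genes and 13 of 15 citrate cycle genes, against 43.3% of all features, and lower for 11 and 2, against 56.7%. The medians were 0.03 and 0.12, against -0.04 over all features. Idh3a stood at -1.59 in labelled and -2.01 in unlabelled cells, Mdh2 at 1.41 in labelled and 1.05 in unlabelled cells, and Fh at 2.10 in labelled and 1.84 in unlabelled cells. In glycolysis Slc2a1 was 0.28 higher and Tpi1 0.24 higher in labelled cells, while Slc2a4 (-0.35), Aldoc (-0.33) and Pfkm (-0.26) were lower. Among the genes around the pathway Slc16a3 was at 0.70 and Pc, pyruvate carboxylase, at -0.82. Pdk4 was well above background in unlabelled but not in labelled cells.

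**Figure D4:**
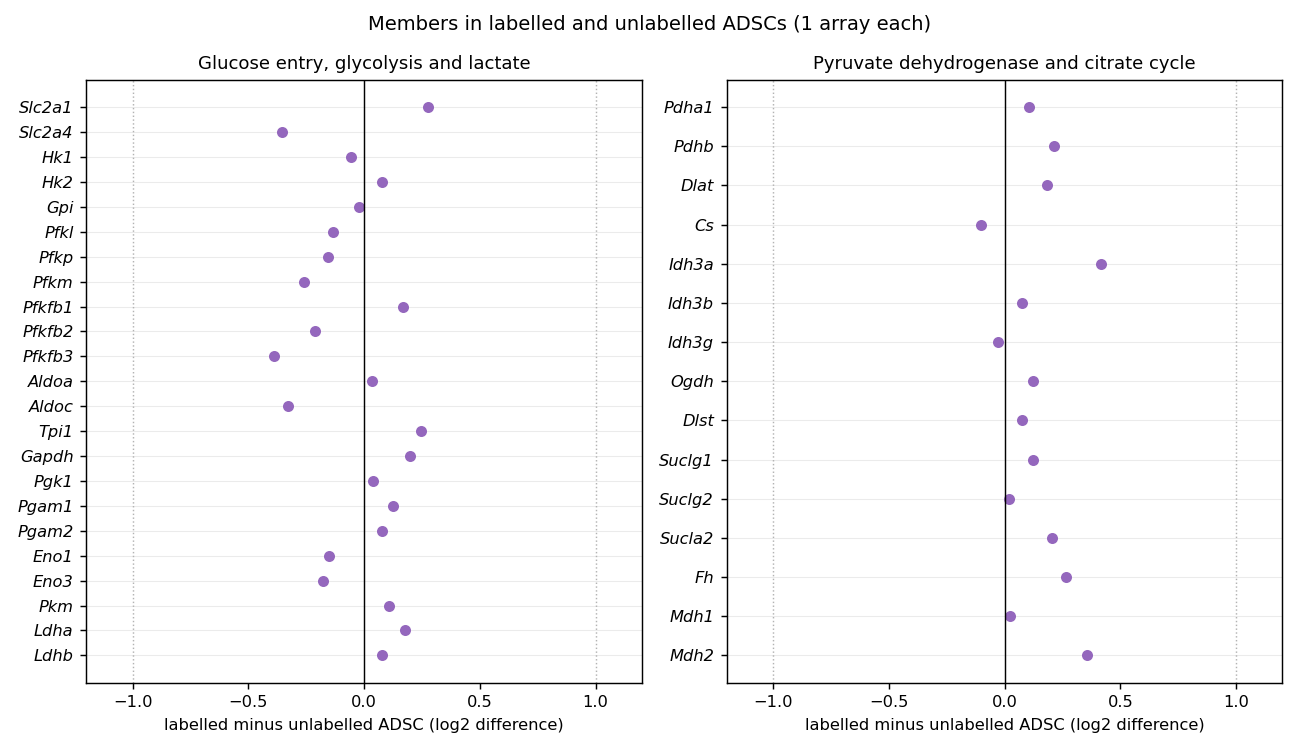
Log2 difference of labelled from unlabelled ADSCs for each member, 1 array each, with dotted lines at 2-fold. Every point lies between -0.39 and 0.41, and 13 of the 15 citrate cycle genes lie right of 0.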

How the data were processed

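Total RNA from rat myocardium or cultured cells was labelled with Cy3, per the labels. The authors deposited scanner intensity values for 58717 spots per array. The submitters' processing notes name Agilent Feature Extraction (11.0.1.1). A second deposited table holds log2 values of unstated scaling; its columns tracked log2 processed signal (lowest r 0.9998), with medians of 8.85 over the hearts and 9.67 over the cells, so it was used as an alternative within each but not between them.

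Log2 processed signal was taken relative to each array's 75th percentile. Control and outlier spots were left out, spots of a probe were averaged, and the brightest probe stood for a gene. Names came from matching unversioned accessions to RefSeq genes (GRCr8, names and promoters only): 18354 of 30354 probes received a symbol, giving 26773 features. Differences were tested with limma 3.58.1 (R 4.3.3; lmFit, eBayes, Benjamini-Hochberg) over features that some array of the fit placed well above background: 19230 in the fit of the 4 hearts, 20745 in that of 2 classes. The scripts were tested on simulated data. All arrays lay on 1 slide in 1 scan, hearts and cells in different rows. Groups of 1 array received no test.

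The named genes are all members, and of the genes around the pathway up to 4 of a list with the largest absolute differences. Pck2, Acly, Egln3 and, for PBS minus sham, Pdk2 were named after their values were seen. The members and lists were chosen with earlier results of these data known. Alternatives covered background correction, scaling, probe choice, filters, thresholds, variance model and single arrays. Figures used matplotlib 3.10.9.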

Additional observations from a re-analysis of the deposited data

How the results depend on the processing

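Scaling moved the medians of the arms in the heart comparisons and in ADSCs. Over glycolysis and the citrate cycle, treated minus PBS was 0.19 and 0.12 after quantile normalization, 0.35 and 0.25 centred on array medians, and 0.20 and 0.12 in the authors' deposited table. Treated minus sham was -0.0077 and -0.030 after quantile normalization and -0.017 and -0.031 in the authors' table. PBS minus sham was -0.15 and -0.16 after quantile normalization, -0.39 and -0.37 centred on medians, and -0.15 and -0.16 in the authors' table. ADSC minus myocardium was -0.18 and -2.20 centred on medians, -2.41 over the citrate cycle with normexp, and -0.95 over glycolysis with the mean of all probes. Centring on medians moved all features to 0.24 in that comparison, quantile normalization to 0.17 and normexp to -0.44. Normexp moved them to -0.15 in both comparisons with sham.

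Leaving out 1 array at a time gave, for ADSC minus myocardium, -0.54 to -0.44 over glycolysis and -2.69 to -2.46 over the citrate cycle, with 30 to 34 members passing limma. It gave 0.10 to 0.30 over the citrate cycle for treated minus PBS and -0.21 to -0.058 for treated minus sham. At 1.5-fold, 7 members were apart in PBS minus sham (17.5% of all features), 1 in treated minus PBS (7.63%) and 3 in treated minus sham (7.28%), and with a single treated heart 1 to 2 were apart by 2-fold from PBS. Signs turned in ADSC minus myocardium for Pkm (-1.52 with the mean of its probes, -3.90 with the other probe, that probe chosen after seeing the data), Hk2 (-0.082 with normexp) and Pgk1 (0.010 with quantile normalization, 0.073 centred on medians). The cause was not tested. Counts of directions, of 2-fold members by direction and of the lowest or highest heart under other settings were added after seeing the data; without 1 array, 1 to 3 members were 2-fold higher and 23 to 25 lower in ADSCs. The authors' table was not run for ADSC minus myocardium, since it was scaled apart for hearts and cells. No paired analysis was possible because the groups compared share fewer than 2 replicate numbers. Sham, PBS and each cell condition are single arrays, which limits what their differences can show.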
